A study of Homo sapiens with 9 samples.

Results

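RCAN1, RCAN2, RCAN3, PPP3CA, PPP3CB, PPP3CC, PPP3R1, NFATC1, NFATC2 and NFATC3 encode regulators, subunits and substrates of calcineurin, and they were followed through RNA sequencing of hypoxic PANC-1 cells, a long-established line grown from a human pancreatic carcinoma. These 10 genes were taken by symbol from the 57820 GENCODE entries of a count table with 112171 features in all. They were chosen by family, with the fold changes of each compound against DMSO in these libraries already known and RCAN1 among the largest, so those values are a description, without a test. All cells had spent 12 h under hypoxia. The rakicidin A group received rakicidin A at 42 nM, a cyclic lipodepsipeptide of bacterial origin, the BE-43547A1 group received BE-43547A1 at 41 nM, and the DMSO group received the solvent at 0.04%, with 3 libraries in each group. The doses were thus close but not equal, how much DMSO the compound media held is not given in the labels, and every group was hypoxic. PANC-1 is a single line, and whether a group's libraries stem from separate cultures is not stated. The p-values therefore measure only how far these libraries spread, which may be technical.

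Calcineurin is a phosphatase that calcium and calmodulin switch on, built from a catalytic A subunit (encoded by PPP3CA, PPP3CB or PPP3CC) and a regulatory B subunit (encoded by PPP3R1 in most tissues). It removes phosphates from the NFAT transcription factors, which then enter the nucleus, and the RCAN proteins bind calcineurin and can inhibit it, RCAN1 being itself a known NFAT target. In pancreatic carcinoma the pathway is best known through NFATC1 and NFATC2, both described as overexpressed in these tumours.

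Counts on features came to 26203326 to 34870860 per rakicidin A library, 39807220 to 45048999 per BE-43547A1 library and 27696394 to 30596594 per DMSO library, and 22353 features passed the filter on low counts and are called the genes tested. Replicate 3 of DMSO stood apart from its group. Its mean chi-square per gene was 18.9 and 17.1 against the other DMSO libraries, while the remaining pairs within a group had 2.86 to 9.11. The summed level of 7 markers of pancreatic carcinoma epithelium was 6669 to 6859 CPM (counts scaled to library size, with TMM factors) in rakicidin A, 8410 to 9087 CPM in BE-43547A1 and 7323 to 7656 CPM in DMSO libraries. Most of it was VIM, which averaged 4296, 5237 and 4501 CPM in rakicidin A, BE-43547A1 and DMSO. In the same order EPCAM averaged 14.7, 18.5 and 18.9 CPM, CDH1 5.38, 6.34 and 8.01 CPM and KRT7 5.10, 6.58 and 5.14 CPM. The group means of KRT8, KRT18 and KRT19 lay between, at 751 to 1234 CPM. Of 4 leukocyte markers the sum was 1.60 to 2.06, 2.77 to 3.46 and 1.53 to 1.82 CPM in rakicidin A, BE-43547A1 and DMSO libraries. CD3E was at 0 in all 9 libraries and PTPRC reached at most 0.0741 CPM. The 4 fibroblast markers summed to 4.88 to 6.27 CPM in rakicidin A, 6.35 to 8.28 CPM in BE-43547A1 and 8.53 to 12.6 CPM in DMSO libraries. INS was at 0 in all libraries.

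RCAN1 has several promoters, and an internal one is known to be driven by NFAT through a cluster of its binding sites. RefSeq gives 6 transcription starts for RCAN1 on chromosome 21 (build GRCh38.p14, minus strand). The windows shown run from 250 bases before to 50 bases after the start. The first and the fourth RCAN1 start are set side by side because they hold different numbers of GGAAA, the core that NFAT proteins bind, and the first NFATC2 start is shown because NFATC2 had the next largest difference from DMSO. Capitals mark GGAAA, or TTTCC where the match lies on the other strand.
RCAN1, the first start, chr21:34615064-34615363, minus strand: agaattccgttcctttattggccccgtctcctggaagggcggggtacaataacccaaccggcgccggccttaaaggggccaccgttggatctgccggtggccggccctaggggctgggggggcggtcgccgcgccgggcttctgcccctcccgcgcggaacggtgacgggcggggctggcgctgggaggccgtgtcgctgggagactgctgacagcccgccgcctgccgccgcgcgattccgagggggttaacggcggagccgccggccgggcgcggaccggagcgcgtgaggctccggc
RCAN1, the fourth start, chr21:34526773-34527072, minus strand: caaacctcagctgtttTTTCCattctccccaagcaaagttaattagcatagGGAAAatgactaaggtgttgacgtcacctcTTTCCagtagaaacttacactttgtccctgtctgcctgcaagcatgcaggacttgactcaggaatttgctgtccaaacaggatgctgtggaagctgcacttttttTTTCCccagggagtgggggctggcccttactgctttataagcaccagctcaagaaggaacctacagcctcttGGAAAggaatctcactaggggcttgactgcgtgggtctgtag
NFATC2, the first start, chr20:51562790-51563089, minus strand: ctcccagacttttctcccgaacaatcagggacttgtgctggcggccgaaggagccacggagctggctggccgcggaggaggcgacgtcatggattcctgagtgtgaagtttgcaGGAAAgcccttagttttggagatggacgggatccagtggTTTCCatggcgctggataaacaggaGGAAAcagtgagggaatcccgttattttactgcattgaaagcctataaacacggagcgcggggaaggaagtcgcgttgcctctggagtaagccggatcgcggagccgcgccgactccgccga

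The window of the fourth RCAN1 start, which lies 88291 bases downstream of the first, held 5 matches to GGAAA, 2 on the printed strand and 3 on the other. The windows of the first 3 RCAN1 starts held 0, and those of the fifth and the sixth held 1 each. Of 35116 RefSeq promoter windows of the same length, 61.2% held at least 1 match and 0.740% held 5 or more. The first NFATC2 window held 3 matches, and 9.94% of all windows held 3 or more. Windows of 7 of the 10 genes were searched, 18 windows in all, of which 11 held GGAAA. PPP3CA and PPP3CB had no window, and windows on chromosome 8, where PPP3CC lies, were left out of the search. Of the other motifs searched on both strands, TGANTCA was in 4 of these 18 windows and in 7.71% of all windows. This pattern is wider than the AP-1 site (TGACTCA or TGAGTCA), since it allows any middle base. The match of the fifth RCAN1 start was TGAATCA and that of the third RCAN3 start TGATTCA, so neither count is one of AP-1 sites. CCACG (part of the ER stress element) was in 7 of 18 and in 38.1% of all. TGATGNAA (the site of ATF4 with CHOP) was in 0 of 18 and in 3.62% of all. Matches to different motifs overlapped at 1 place, in the window of the sixth RCAN1 start. These are matches of letters. The counts are per gene, so they do not show from which start the RCAN1 reads came.

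RCAN1 was about as high in both compound groups and low in DMSO. It had 1205, 1200.2 and 1241 CPM in the rakicidin A libraries, 1149.9, 1155 and 1133 CPM in the BE-43547A1 libraries and 20.6, 20.9 and 19.1 CPM in the DMSO libraries. All 6 compound libraries lay far above all 3 DMSO libraries. In bulk RNA, more cells with a transcript and more transcript per cell cannot be told apart. RCAN1 alone took 0.108, 0.108 and 0.110% of the counts on features in rakicidin A, 0.113, 0.112 and 0.109% in BE-43547A1 and 0.00235, 0.00239 and 0.00220% in DMSO. The log2 fold change was 5.91 ± 0.06 for rakicidin A and 5.83 ± 0.06 for BE-43547A1 against DMSO (± SE), which is 60.2-fold and 56.7-fold. Among all 22353 genes tested these were the 23rd and the 94th highest log2 fold changes. Scaled by total counts alone they were 5.55 and 5.59.

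The other RCAN genes did not share that pattern. RCAN3, also a calcineurin-binding regulator, had 14.9, 14.5 and 14.2 CPM in rakicidin A, 19.2, 19.7 and 17.2 CPM in BE-43547A1 and 30.6, 30.8 and 33.5 CPM in DMSO libraries. The 3 groups did not overlap, with rakicidin A lowest and DMSO highest. Its log2 fold change was -1.13 ± 0.08 for rakicidin A and -0.76 ± 0.07 for BE-43547A1 against DMSO. Scaled by total counts alone it was -1.48 and -0.99. In GENCODE v29, 15.2% of the exon bases of RCAN3 lie opposite an antisense transcript, AL445686.2. The strand setting of the counting is not given in the sources used here, so reads of both cannot be told apart. RCAN2 was close to undetected, with 2, 1 and 2 counts in rakicidin A, 2, 0 and 2 counts in BE-43547A1 and 1, 0 and 0 counts in DMSO libraries, and was too low to be tested.

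**Figure D1:**
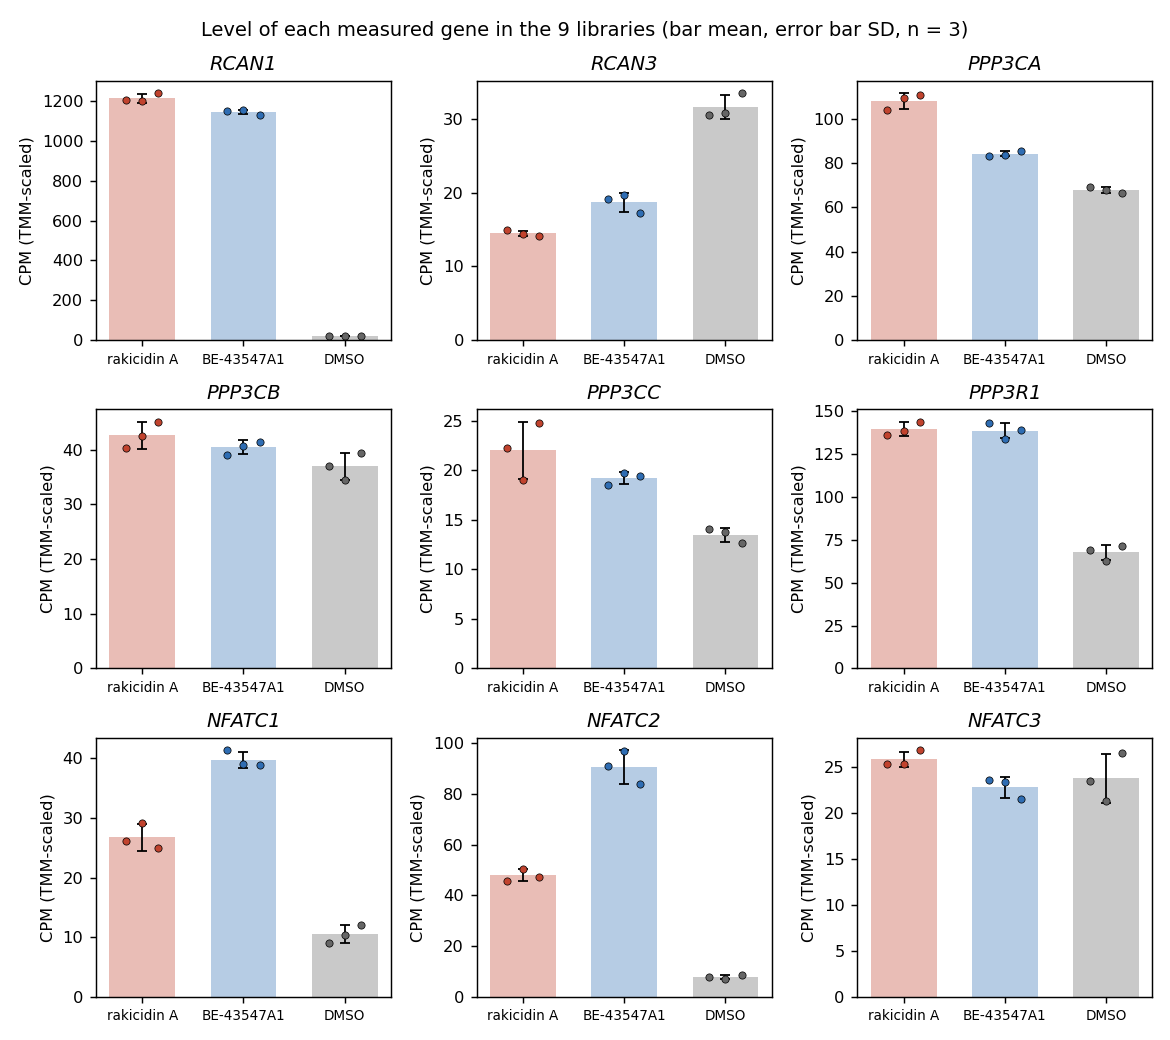
Level of the 9 genes tested, in TMM-scaled CPM on a linear axis from 0 that differs between panels, with 1 point per library and bars for the mean ± SD (n = 3 libraries) in rakicidin A, BE-43547A1 and DMSO. RCAN1 lies between 1133 and 1241 CPM in the compound libraries and between 19.1 and 20.9 CPM in DMSO, RCAN3 is lowest in rakicidin A, and NFATC1 and NFATC2 are highest in BE-43547A1.

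Of the calcineurin subunits, the B subunit gene PPP3R1 differed most from DMSO. It had 136.3, 138.9 and 143.9 CPM in rakicidin A, 143.2, 134.0 and 139.4 CPM in BE-43547A1 and 69.1, 62.8 and 71.3 CPM in DMSO libraries. The compound groups overlapped each other and lay above every DMSO library. The log2 fold change was 1.04 ± 0.06 for each compound. Scaled by total counts alone it was 0.69 for rakicidin A and 0.80 for BE-43547A1. PPP3R1 shares 20.8% of its exon bases with the antisense transcript AC017083.2 and 13.7% with AC017083.3 on its own strand.

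PPP3CA, which encodes the alpha form of the catalytic subunit, had 104.2, 109.4 and 110.8 CPM in rakicidin A, 83.4, 83.9 and 85.7 CPM in BE-43547A1 and 69.4, 67.9 and 66.4 CPM in DMSO libraries. The groups did not overlap, and rakicidin A was highest. Against DMSO its log2 fold change was 0.67 ± 0.05 for rakicidin A and 0.31 ± 0.05 for BE-43547A1, and 0.31 and 0.076 when scaled by total counts alone.

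PPP3CC, the gamma form, had 22.3, 19.1 and 24.8 CPM in rakicidin A, 18.6, 19.7 and 19.4 CPM in BE-43547A1 and 14.0, 13.8 and 12.6 CPM in DMSO libraries. Every compound library lay above every DMSO library, and the rakicidin A and BE-43547A1 libraries overlapped. Its log2 fold change was 0.70 ± 0.09 for rakicidin A and 0.51 ± 0.09 for BE-43547A1, and 0.35 and 0.28 when scaled by total counts alone. Of the exon bases of PPP3CC, 10.3% lie opposite the antisense transcript AC037459.2.

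PPP3CB, the beta form, stayed close to its DMSO level. It had 40.2, 42.4 and 45.1 CPM in rakicidin A, 39.0, 40.7 and 41.5 CPM in BE-43547A1 and 37.0, 34.5 and 39.3 CPM in DMSO libraries. The BE-43547A1 and DMSO libraries overlapped, while the lowest rakicidin A library lay just above the highest DMSO library. The log2 fold change was 0.20 ± 0.07 for rakicidin A and 0.13 ± 0.07 for BE-43547A1. Scaled by total counts alone it was -0.15 and -0.11, so its direction against DMSO depended on the scaling.

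NFATC2 and NFATC1, the NFAT genes linked to pancreatic carcinoma, were both higher with either compound than with DMSO, and higher in BE-43547A1 than in rakicidin A. NFATC2 had 45.8, 50.5 and 47.3 CPM in rakicidin A, 90.9, 97.0 and 83.9 CPM in BE-43547A1 and 7.86, 7.11 and 8.64 CPM in DMSO libraries. The 3 groups did not overlap. Leukocytes also express NFATC2, and the summed leukocyte markers were highest in BE-43547A1 libraries as well. Of the 4 markers ITGAM averaged 1.72 CPM in rakicidin A, 2.46 CPM in BE-43547A1 and 1.54 CPM in DMSO, and CD14 averaged 0.102, 0.565 and 0.120 CPM in rakicidin A, BE-43547A1 and DMSO. CD3E was at 0 and PTPRC at or near 0 in every group. Their part in the NFATC2 values was not tested. The NFATC2 log2 fold change was 2.60 ± 0.08 for rakicidin A and 3.52 ± 0.08 for BE-43547A1, or 6.07-fold and 11.5-fold. It stood 585th and 494th from the highest of all genes tested, and was 2.24 and 3.28 when scaled by total counts alone.

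NFATC1 had 26.1, 29.2 and 24.9 CPM in rakicidin A, 41.4, 39.1 and 38.8 CPM in BE-43547A1 and 9.08, 10.4 and 12.1 CPM in DMSO libraries. Its groups did not overlap either, and they stood in the same order. The log2 fold change was 1.35 ± 0.09 for rakicidin A and 1.92 ± 0.09 for BE-43547A1, and 0.99 and 1.68 when scaled by total counts alone. NFATC3, a more widely expressed NFAT, had 25.4, 25.3 and 26.8 CPM in rakicidin A, 23.6, 23.3 and 21.5 CPM in BE-43547A1 and 23.5, 21.3 and 26.6 CPM in DMSO libraries. Its compound libraries lay within or next to the DMSO range, with log2 fold changes of 0.12 ± 0.08 and -0.06 ± 0.08. Scaled by total counts alone they were -0.24 and -0.30, so its direction in rakicidin A also depended on the scaling. In GENCODE v29, 31.8% of the exon bases of NFATC3 lie opposite AC020978.5 and 15.7% are shared with AC020978.7.

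Of the 9 genes tested, 8 passed an adjusted p below 0.05 in rakicidin A against DMSO (7 higher and RCAN3 lower), where 64.7% of all genes tested passed. In BE-43547A1 against DMSO 7 passed (6 higher and RCAN3 lower), where 70.4% of all genes passed. Nothing is read from these counts or from the medians and counts that follow, since the genes were chosen with these comparisons known. The median log2 fold change of the 9 genes was 0.70 for rakicidin A and 0.51 for BE-43547A1, against -0.023 and -0.00026 over all genes tested. Both comparisons share the same DMSO libraries. With total counts alone, which moved the median of all genes to -0.38 and -0.24, 9 genes passed in rakicidin A (6 higher, 3 lower) and 7 in BE-43547A1 (5 higher, 2 lower). All 9 genes had enough counts in the DMSO libraries alone. RCAN2, with at most 2 counts in a library, was far below the filter.

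**Figure D2:**
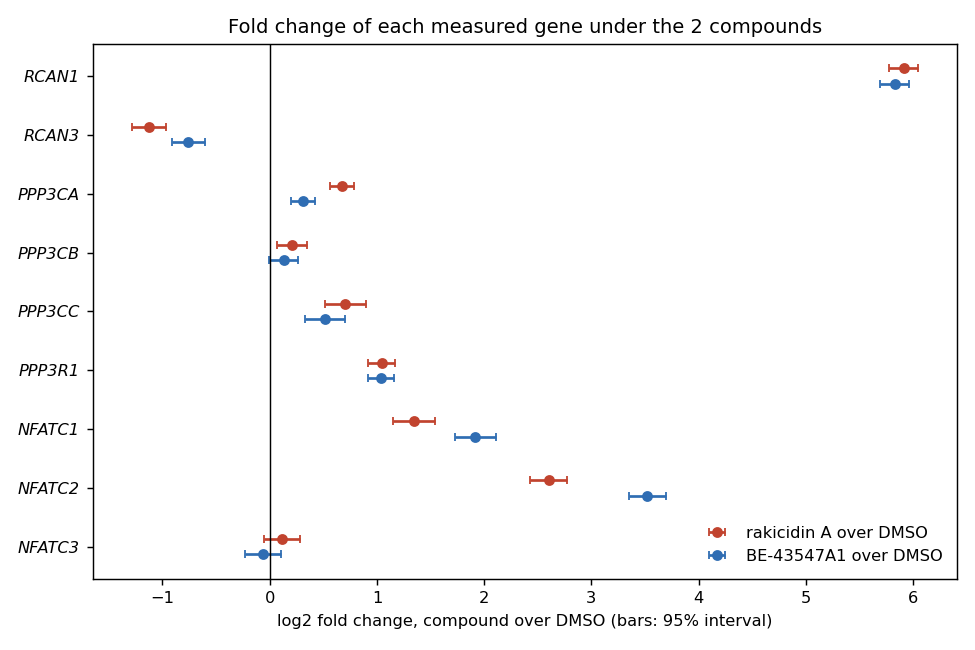
Log2 fold change of each gene against DMSO for rakicidin A and for BE-43547A1, with 95% intervals from the fit to the 9 libraries. RCAN1 lies at 5.91 and 5.83, NFATC2 at 2.60 and 3.52 and RCAN3 at -1.13 and -0.76, and NFATC3 and PPP3CB lie near 0.

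The direct comparison asked where the compounds differed from each other, at 42 nM of rakicidin A and 41 nM of BE-43547A1. The choice of the genes did not use this contrast. Of the 9 genes tested, 4 passed (edgeR quasi-likelihood test, Benjamini-Hochberg adjusted over all genes), and 46.6% of all genes tested passed, so the share among these genes was close to that of genes at large. PPP3CA was higher in rakicidin A, and RCAN3, NFATC1 and NFATC2 were lower. The median log2 fold change was 0.075 over the 9 genes and -0.022 over all genes tested.

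NFATC2 averaged 47.8 ± 2.39 CPM in rakicidin A and 90.6 ± 6.56 CPM in BE-43547A1 (SD, n = 3 libraries each). The log2 fold change of rakicidin A over BE-43547A1 was -0.92 (95% interval -1.07 to -0.77, edgeR adjusted p = 8.88e-09), and the adjusted p ran from 7.08e-37 to 4.55e-07 over the alternatives. NFATC1 averaged 26.7 ± 2.20 CPM in rakicidin A and 39.8 ± 1.38 CPM in BE-43547A1, a log2 fold change of -0.57 (-0.75 to -0.39, edgeR adjusted p = 2.26e-05). Both genes were lower in all 3 rakicidin A libraries than in any BE-43547A1 library.

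RCAN3 averaged 14.5 ± 0.357 CPM in rakicidin A and 18.7 ± 1.33 CPM in BE-43547A1, a log2 fold change of -0.37 (-0.53 to -0.21, edgeR adjusted p = 0.000707). PPP3CA averaged 108 ± 3.50 CPM in rakicidin A and 84.3 ± 1.21 CPM in BE-43547A1, a log2 fold change of 0.36 (0.25 to 0.47, edgeR adjusted p = 1.83e-05). These 4 calls held under each alternative run.

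For RCAN1 no difference between the compounds passed. It averaged 1215 ± 22.2 CPM in rakicidin A and 1146 ± 11.3 CPM in BE-43547A1, and the log2 fold change of 0.085 had an interval of -0.02 to 0.19 (edgeR adjusted p = 0.185). The 3 rakicidin A libraries lay above the 3 BE-43547A1 libraries, yet the value was -0.036 when scaled by total counts alone (adjusted p = 0.566). PPP3R1 had a log2 fold change of 0.008 (-0.11 to 0.13, edgeR adjusted p = 0.921) and PPP3CB one of 0.075 (-0.063 to 0.21, adjusted p = 0.370), which were -0.11 and -0.045 with total counts alone. For these genes the intervals leave room for small differences in either direction.

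PPP3CC and NFATC3 lay close to the threshold. PPP3CC had a log2 fold change of 0.19 (0.008 to 0.38, edgeR adjusted p = 0.0814), and an adjusted p of 0.0117 without rakicidin A replicate 2 and 0.0429 without DMSO replicate 3. NFATC3 had 0.18 (0.01 to 0.35, adjusted p = 0.0766), with 0.0454 without DMSO replicate 2, 0.0211 without DMSO replicate 3 and 0.0249 in a fit of the 6 compound libraries only. Neither call can be given as settled in these libraries. In this contrast leaving out DMSO libraries changes only the estimate of spread and scaling that the groups share.

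**Figure D3:**
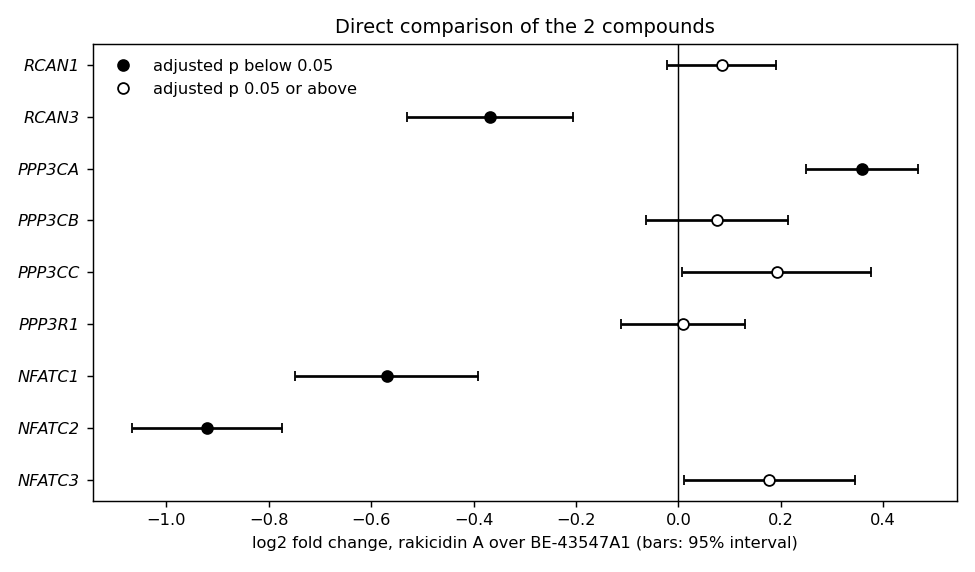
Log2 fold change of rakicidin A over BE-43547A1 for the 9 genes tested, with 95% intervals, with filled points where the adjusted p was below 0.05 and open points elsewhere. NFATC2 (-0.92), NFATC1 (-0.57) and RCAN3 (-0.37) lie below 0, PPP3CA (0.36) lies above, and the RCAN1 interval includes 0.

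Levels of different genes were compared as CPM per kilobase of exon. In rakicidin A libraries RCAN1 was highest of the 10 genes at 173.9 ± 3.17 CPM per kb (SD, n = 3 libraries, as for all such values here), followed by PPP3R1 at 41.5 ± 1.16 and PPP3CA at 20.7 ± 0.671. PPP3CB at 8.36 ± 0.477 and PPP3CC at 7.60 ± 0.991 CPM per kb lay within their spread of each other. NFATC2 came next at 5.77 ± 0.288, then NFATC1 at 2.95 ± 0.243 and NFATC3 at 2.94 ± 0.0976, which did not differ beyond their spread, then RCAN3 at 2.05 ± 0.0505 CPM per kb.

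In BE-43547A1 libraries RCAN1 led at 164.0 ± 1.61 CPM per kb, with PPP3R1 at 41.3 ± 1.36 and PPP3CA at 16.2 ± 0.233. NFATC2, at 10.9 ± 0.791 CPM per kb, stood above PPP3CB at 7.93 ± 0.250 and PPP3CC at 6.64 ± 0.206. NFATC1 followed at 4.39 ± 0.153, and RCAN3 at 2.64 ± 0.188 and NFATC3 at 2.59 ± 0.131 CPM per kb lay within their spread.

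In DMSO libraries the order was another one. PPP3R1 was highest at 20.1 ± 1.31 CPM per kb, then PPP3CA at 13.0 ± 0.291 and PPP3CB at 7.25 ± 0.472. PPP3CC at 4.65 ± 0.254 and RCAN3 at 4.47 ± 0.232, and likewise RCAN1 at 2.89 ± 0.135 and NFATC3 at 2.70 ± 0.300, were neighbours within their spread. NFATC1 at 1.16 ± 0.166 and NFATC2 at 0.949 ± 0.0924 CPM per kb lay within their spread of each other and were the lowest of the genes tested, with RCAN2 last in every group. Among 17595 tested GENCODE genes with a length, RCAN1 ranked 190 in rakicidin A, 218 in BE-43547A1 and 8922 in DMSO libraries by CPM per kb.

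Within the RCAN genes and within NFATC1, NFATC2 and NFATC3 the make-up differed between the groups. RCAN1 made up 98.8 ± 0.0442% of the summed RCAN level per kb in rakicidin A, 98.4 ± 0.0927% in BE-43547A1 and 39.3 ± 2.31% in DMSO libraries (SD, n = 3 each). RCAN3 made up 60.7 ± 2.34% in DMSO. NFATC2 made up 49.5 ± 0.528% of the summed level of NFATC1, NFATC2 and NFATC3 in rakicidin A, 61.0 ± 1.47% in BE-43547A1 and 19.8 ± 0.679% in DMSO, while NFATC3 made up 25.2 ± 1.48%, 14.5 ± 0.270% and 56.2 ± 1.51% in rakicidin A, BE-43547A1 and DMSO. NFATC1 held about the same share, 25.3 ± 1.28% in rakicidin A, 24.5 ± 1.23% in BE-43547A1 and 24.1 ± 2.14% in DMSO. These shares leave out NFAT5, which calcineurin does not regulate and which stood at 8.92 ± 0.789 CPM per kb in rakicidin A, 10.4 ± 0.686 in BE-43547A1 and 3.85 ± 0.578 in DMSO.

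The make-up of the catalytic subunits was more alike across the groups. PPP3CA held 56.6 ± 1.77% of their summed level per kb in rakicidin A, 52.6 ± 0.578% in BE-43547A1 and 52.3 ± 0.885% in DMSO. PPP3CB held 22.8 ± 0.515% in rakicidin A, 25.8 ± 0.299% in BE-43547A1 and 29.1 ± 1.82% in DMSO. Against the sum of the 3 catalytic genes, the RCAN1 level per kb was 4.74 ± 0.133 times as high in rakicidin A, 5.33 ± 0.144 times in BE-43547A1 and 0.116 ± 0.00569 times in DMSO. The B subunit gene PPP3R1 stood at 1.13 ± 0.0225 times that sum in rakicidin A, 1.34 ± 0.0648 times in BE-43547A1 and 0.808 ± 0.0470 times in DMSO. These ratios are of RNA levels within a library and do not depend on how libraries were scaled. They do depend on the exon lengths, which count all exons annotated for a gene, whichever transcripts the cells made. The PPP3R1 level may also include reads of the transcripts that overlap it.

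**Figure D4:**
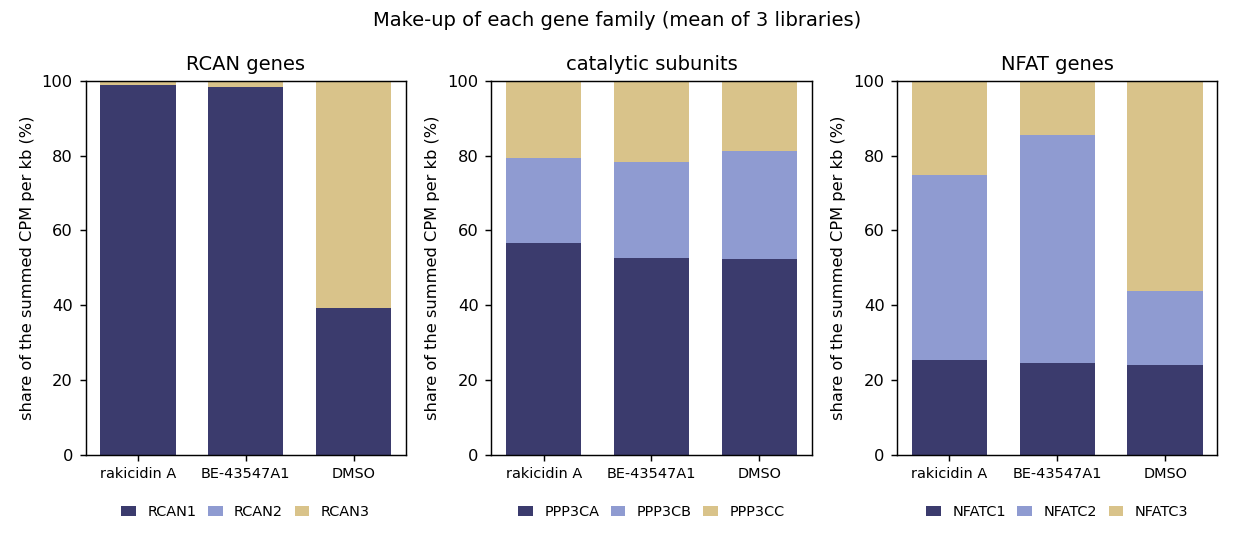
Share of each gene in the summed CPM per kb of its family, for RCAN1 to RCAN3, the catalytic calcineurin genes and NFATC1 to NFATC3, as the mean over 3 libraries in rakicidin A, BE-43547A1 and DMSO. RCAN1 holds 98.8, 98.4 and 39.3% and NFATC2 49.5, 61.0 and 19.8% in rakicidin A, BE-43547A1 and DMSO, while the catalytic subunits keep similar shares.

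A further 60 genes of the pathway, in 5 lists, gave the setting of these values. The lists were chosen with earlier results of these data known. Genes given below with a p against DMSO were named because theirs were among the lowest of their list. Those p-values are thus a description. All 60 were in the table and 43 could be tested. Higher and lower mean here that a gene passed the adjusted p. In rakicidin A against DMSO 26 were higher, 9 lower and 8 did not pass, with a median log2 fold change of 0.42, and 64.7% of all genes passed. In BE-43547A1 against DMSO 24 were higher, 10 lower and 9 did not pass, with a median of 0.34, and 70.4% of all genes passed. In the direct comparison 12 were higher in rakicidin A, 11 lower and 20 did not pass, with a median of -0.0075, and 46.6% of all genes passed. Scaled by total counts alone, the split of higher and lower was 19 and 16 in rakicidin A, 20 and 17 in BE-43547A1 and 7 and 15 in the direct comparison. Some list genes lacked enough counts in a group of the comparison. Against DMSO these were TNF, CSF2, PTGS2 and EGR3, which passed the filter on low counts only through compound libraries, and AKAP6, which passed through DMSO. PTGS2, EGR3 and AKAP6 passed in the group where they were high, which favoured that direction, as for TNF and CSF2 in BE-43547A1 against DMSO. In rakicidin A against DMSO, TNF and CSF2 passed only through BE-43547A1, outside the comparison, so their direction was not fixed. There AKAP6 still overlapped between the groups (log2 fold change -0.19, edgeR adjusted p = 0.673). Between the compounds TNF and CSF2 passed only through BE-43547A1, which fixed theirs. AKAP6 passed through DMSO, which is not in that comparison, so its direction there was not fixed. Without the genes named for each comparison 22 of 38 were higher and 9 lower in rakicidin A (median 0.39), 20 of 38 higher and 9 lower in BE-43547A1 (median 0.30), and 12 of 40 higher and 9 lower in the direct comparison (median 0.010). For all genes tested the split with total counts alone was 4477 and 11392, 5951 and 10450, and 3923 and 6868, against 31.9 and 32.7%, 35.3 and 35.1%, and 24.1 and 22.5% of genes with TMM scaling.

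Of the 3 paralogs outside the 10 genes, NFAT5, which responds to osmotic stress, was higher with both compounds. It averaged 146 ± 12.9 CPM in rakicidin A, 171 ± 11.3 CPM in BE-43547A1 and 63.2 ± 9.48 CPM in DMSO libraries. Its log2 fold change against DMSO was 1.21 ± 0.09 for rakicidin A (edgeR adjusted p = 7.20e-10) and 1.44 ± 0.09 for BE-43547A1 (adjusted p = 5.82e-11). The direct difference of -0.23 (edgeR adjusted p = 0.0379) did not pass without rakicidin A replicate 1 (0.224) or 3 (0.0935) or without BE-43547A1 replicate 2 (0.150) or 3 (0.0933). PPP3R2, the B subunit gene of testis, had 0 counts in all libraries, and NFATC4 had too few counts to be tested.

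Of the list of calmodulin, anchors and inhibitors of calcineurin, 10 genes were tested. In rakicidin A 2 were higher and 5 lower (median log2 fold change -0.20), and in BE-43547A1 1 was higher and 7 lower (median -0.24; 6 lower without AKAP6), with 0 higher and 7 lower, and 0 higher and 9 lower, when scaled by total counts alone. Between the compounds 3 were higher in rakicidin A and 2 lower. Of all genes tested, 31.9% were higher and 32.7% lower in rakicidin A against DMSO, and 35.3 and 35.1% in BE-43547A1. Between the compounds 24.1% of all genes were higher in rakicidin A and 22.5% lower. CALM3, one of the calmodulin genes, averaged 125 CPM in rakicidin A, 142 CPM in BE-43547A1 and 254 CPM in DMSO, with log2 fold changes of -1.02 (edgeR adjusted p = 1.63e-11) and -0.84 (adjusted p = 2.44e-10). AKAP5, which anchors calcineurin at the membrane, averaged 1.22 CPM in rakicidin A, 1.67 CPM in BE-43547A1 and 6.50 CPM in DMSO, with log2 fold changes of -2.40 and -1.97. MYOZ3, a calcineurin-binding protein of muscle, averaged 0.687, 0.624 and 2.38 CPM in rakicidin A, BE-43547A1 and DMSO, with log2 fold changes of -1.75 and -1.94. CHP1, a calcineurin B homologue, was higher with both compounds (0.31 and 0.34), but at -0.045 for rakicidin A and 0.10 for BE-43547A1 when scaled by total counts alone.

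Of the kinases and scaffolds that oppose NFAT, for the most part by returning it to the cytoplasm, 13 were tested. With each compound 9 were higher and 2 (DYRK2 and MAPK9) lower, with medians of 0.69 for rakicidin A and 0.43 for BE-43547A1. With total counts alone 7 were higher and 4 lower in rakicidin A, and 8 higher and 4 lower in BE-43547A1. Between the compounds 5 were higher in rakicidin A and 1 lower. Of all genes tested, 31.9% were higher and 32.7% lower in rakicidin A against DMSO, and 35.3 and 35.1% in BE-43547A1. Between the compounds 24.1% of all genes were higher in rakicidin A and 22.5% lower. DYRK1A, a priming kinase of NFAT, averaged 197.8 CPM in rakicidin A, 189.8 CPM in BE-43547A1 and 93.8 CPM in DMSO, with log2 fold changes of 1.08 (edgeR adjusted p = 1.09e-12) and 1.02 (adjusted p = 2.53e-12). DYRK3, a kinase of the same family, averaged 48.0, 44.9 and 12.4 CPM in rakicidin A, BE-43547A1 and DMSO, with log2 fold changes of 1.96 and 1.86. MAPK8, the stress kinase JNK1, averaged 212.7, 141.7 and 82.0 CPM in rakicidin A, BE-43547A1 and DMSO. It was higher in rakicidin A than in BE-43547A1 by 0.59 on the log2 scale (edgeR adjusted p = 1.16e-06). DYRK2 averaged 12.9 CPM in rakicidin A, 9.79 CPM in BE-43547A1 and 27.5 CPM in DMSO, with log2 fold changes of -1.09 and -1.49.

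Of 11 other substrates of calcineurin, 6 were higher and 2 lower in rakicidin A (median 0.34), and 6 higher and 1 lower in BE-43547A1 (median 0.21). Of all genes tested, 31.9% were higher and 32.7% lower in rakicidin A, and 35.3 and 35.1% in BE-43547A1. With total counts alone 5 of the substrates were higher and 5 lower in rakicidin A, and 4 higher and 4 lower in BE-43547A1. TFE3, a transcription factor of lysosome genes, averaged 51.2 CPM in rakicidin A, 67.0 CPM in BE-43547A1 and 18.1 CPM in DMSO, which is 2.82-fold and 3.70-fold higher than DMSO. MEF2D, a transcription factor best known from muscle and neurons, averaged 35.0, 24.5 and 11.6 CPM in rakicidin A, BE-43547A1 and DMSO, with log2 fold changes of 1.59 and 1.07. The compounds thus differed in opposite directions at these genes, by -0.39 for TFE3 (edgeR adjusted p = 0.000686) and 0.51 for MEF2D (adjusted p = 0.00174). CRTC2, a coactivator of CREB, had log2 fold changes of 1.10 and 1.33, and ELK1, a transcription factor downstream of MAP kinases, had 0.93 and 0.96.

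Of 18 known NFAT target genes 8 were tested. IL2, IL3, IL4, IL5, IL6, IFNG, CD40LG, FASLG, TNFSF11 and ACP5 had too few counts. TNF, CSF2, PTGS2 and EGR3 had enough counts only through compound libraries. PTGS2 and EGR3 thus had to differ from DMSO with either compound, and TNF and CSF2 in BE-43547A1. In rakicidin A against DMSO the direction of TNF and CSF2 was not fixed, but their counts were low in both groups. Of IL8, EGR2, MYC and CTSK, which had enough counts in DMSO as well, all 4 were higher in rakicidin A and 3 (not CTSK) in BE-43547A1. Of all genes tested, 31.9% were higher in rakicidin A and 35.3% in BE-43547A1. The listed targets also answer to other transcription factors. IL8, the chemokine also named CXCL8, averaged 316 ± 21.9 CPM in rakicidin A, 571 ± 52.8 CPM in BE-43547A1 and 11.9 ± 0.202 CPM in DMSO libraries. Its log2 fold change was 4.74 for rakicidin A (edgeR adjusted p = 9.44e-19) and 5.59 for BE-43547A1 (adjusted p = 1.95e-19), and -0.85 between the compounds (adjusted p = 1.26e-08). MYC, a transcription factor of cell growth, averaged 291 CPM in rakicidin A, 244.7 CPM in BE-43547A1 and 81.4 CPM in DMSO, with log2 fold changes of 1.84 and 1.59. It was higher in rakicidin A than in BE-43547A1 by 0.25 (edgeR adjusted p = 0.00450), and by 0.13 with an adjusted p of 0.106 when scaled by total counts alone. EGR3, a zinc finger transcription factor, averaged 1.25 CPM in rakicidin A, 5.09 CPM in BE-43547A1 and 0.237 CPM in DMSO, and the compounds differed by -2.01 (edgeR adjusted p = 9.57e-08). PTGS2, the inducible cyclooxygenase, averaged 2.92, 3.39 and 0.149 CPM in rakicidin A, BE-43547A1 and DMSO, and the compounds differed by -0.22 (edgeR adjusted p = 0.309). TNF, with 24 counts over the rakicidin A libraries and 311 over the BE-43547A1 libraries, and CSF2, with 19 and 135, reached the filter only through BE-43547A1. Of the other 6 targets, MYC was higher in rakicidin A than in BE-43547A1, 3 (IL8, EGR2 and EGR3) were lower and 2 did not pass, where 46.6% of all genes passed.

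**Figure D5:**
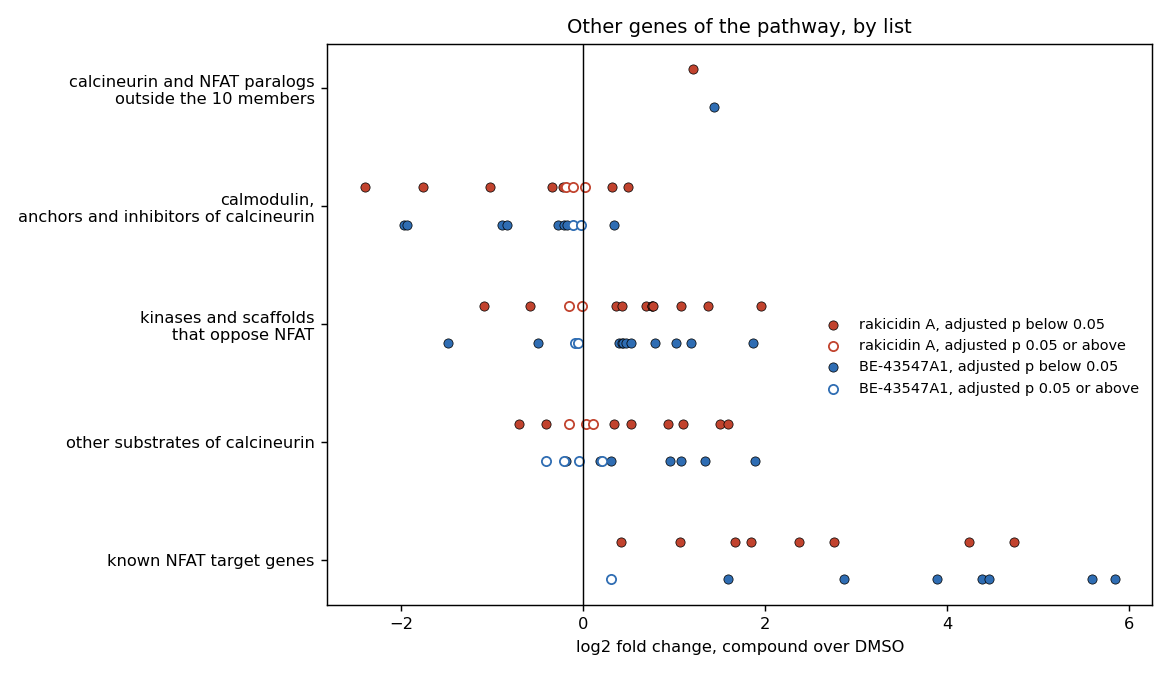
Log2 fold change against DMSO of each tested gene of the 5 pathway lists, 1 point per gene for rakicidin A and for BE-43547A1, filled where the adjusted p was below 0.05 and open elsewhere. The list medians of the calmodulin and inhibitor list lie below 0 (-0.20 and -0.24), and those of the list of kinases that oppose NFAT lie above (0.69 and 0.43). Of the target genes, TNF, CSF2, PTGS2 and EGR3 were tested only through their compound libraries.

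The genes whose pattern was most like that of RCAN1 were found by the root mean square difference of log2 CPM from the DMSO mean over the 6 compound libraries, among 11693 candidates. The nearest were KRTAP2-3 (difference 0.234), MMP10 (0.518), ATF3 (0.525), HERPUD1 (0.581), CCL20 (0.666) and ZSCAN12P1 (0.814). ATF3, a stress-induced transcription factor, averaged 944 CPM in rakicidin A, 1009 CPM in BE-43547A1 and 11.7 CPM in DMSO. HERPUD1, which serves the breakdown of misfolded proteins of the endoplasmic reticulum, averaged 835 CPM in rakicidin A, 592 CPM in BE-43547A1 and 17.5 CPM in DMSO. CCL20, a chemokine, averaged 17.1 CPM in rakicidin A, 39.2 CPM in BE-43547A1 and 0.357 CPM in DMSO. KRTAP2-3 had 1 count and MMP10 had 3 counts over the DMSO libraries together, so their distance rests on the prior count of 2. ZSCAN12P1 is a pseudogene and may share reads with the gene it was copied from. The 6 compound libraries share their DMSO baseline, and the likeness is a description.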

How the data were processed

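Per the labels, total RNA was sequenced on an Illumina NextSeq in paired-end reads of 76 bases. The submitters' processing notes name TopHat2, HTSeq, GRCh37 and hg19. The strand setting is not given. The deposited table holds raw counts per feature made by the authors, with no normalization. Entries that name no gene were left out: reads on no feature made up 16.4 to 20.8% and reads at more than 1 site 19.1 to 22.4% of a library.

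The analysis used edgeR 4.0.16 in R 4.3.3: filterByExpr, TMM scaling (factors 0.890 to 0.898 in rakicidin A, 0.963 to 0.989 in BE-43547A1 and 1.14 to 1.15 in DMSO), and a quasi-likelihood fit of the 9 libraries with 1 mean per group, which leaves 6 residual degrees of freedom. The threshold was an adjusted p (Benjamini-Hochberg, over all 22353 genes tested) below 0.05. The SE was derived from the log2 fold change and the F statistic, and intervals are at 95%. Log CPM used a prior count of 2. Exon lengths and overlaps came from GENCODE v29 (GRCh38), another build than the authors', and promoter windows from RefSeq (GRCh38.p14). The fit was tested on simulated data.

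The genes and lists were chosen with earlier results of these data known. Named were all 10 genes, up to 4 genes per list that had the lowest unadjusted p over both compounds (by their product), and the 6 genes most like RCAN1. Alternatives were total counts alone, RLE size factors, DESeq2 1.42.0, no filter, the 6 libraries of a comparison, a replicate block and each library left out. A marker of other cell types is not reported here. A count of list genes with enough counts in both compared groups was added after the data were seen. Figures were drawn with matplotlib 3.10.9.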

Additional observations from a re-analysis of the deposited data

How the results depend on the processing

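Across the alternatives, each count of genes passing stayed within 1.5 times its value. Leaving out 1 library at a time gave 7 to 9 of the 9 genes in rakicidin A against DMSO, 7 to 8 in BE-43547A1 against DMSO and 4 to 6 in the direct comparison, 32 to 35, 33 to 34 and 18 to 24 pathway genes, and 13611 to 14832, 15110 to 16454 and 8878 to 11456 of all genes. Of the log2 fold changes given in the report, total counts alone turned the sign of these: against DMSO, PPP3CB in rakicidin A (-0.15) and BE-43547A1 (-0.11), NFATC3 in rakicidin A (-0.24) and CHP1 in rakicidin A (-0.045), and between the compounds, where none of them passed, RCAN1 (-0.036), PPP3CB (-0.045) and PPP3R1 (-0.11, and -0.016 to -0.0037 under 3 other alternatives). With DMSO replicate 3 left out, NFATC3 stood at 0.019 in BE-43547A1 against DMSO, and 9 and 8 of the 9 genes passed against DMSO. Correlations of the deviations from the group mean were -0.057 to 0.12 between samples with the same replicate number. They were -0.097 to 0.092 between samples with different numbers. With 3 libraries per group, these values cannot tell whether the number marks a shared batch. With the replicate number as a block, 8, 7 and 4 of the 9 genes passed, 35, 33 and 23 pathway genes, and 14359, 15670 and 10347 of all genes. RCAN2, with 0 to 2 counts per library, and 17 list genes had too few counts to be tested. The cause of the shifts was not tested.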
